A study of Homo sapiens with 6 samples.

Results

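The BCL2 family genes examined here are BCL2, BCL2L1, MCL1, BAX, BAK1, BCL2L11, BMF, BBC3, PMAIP1 and BID, taken from the expression table by gene symbol, 1 identifier each. They are 10 of the 26184 genes and loci listed, and 9 of them had enough reads to be tested. Huh7 is a human hepatocellular carcinoma cell line. RNA was sequenced from 3 samples of the parental line (Huh7 P, labelled untreated, time 0) and 3 samples of the lenvatinib-resistant line (Huh7 LR), which was derived from it by continuous exposure to lenvatinib between 1 and 20 μM over 10 months, and both lines carry the same genotype label (WT). Huh7 LR is a single derived line, and it was kept in medium with 20 μM lenvatinib, although the sources do not state whether the drug was present when RNA was taken. Drug exposure, selection and the time spent in culture therefore cannot be told apart in this comparison.

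Proteins of the BCL2 family decide whether the outer mitochondrial membrane is opened during apoptosis. BAX and BAK1 form the pores that release cytochrome c, the anti-apoptotic proteins (BCL2, BCL-xL encoded by BCL2L1, and MCL1) hold them in check, and the BH3-only proteins (BIM encoded by BCL2L11, BMF, PUMA encoded by BBC3, NOXA encoded by PMAIP1, and BID) bind the anti-apoptotic proteins or activate BAX and BAK1. Hepatocytes are known to depend on BCL-xL and MCL1 for survival, and on BID to carry death receptor signals to mitochondria.

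Huh7 LR cells exhibited higher mRNA levels of 3 of the 5 BH3-only genes (BMF, BBC3 and BCL2L11) and lower levels of the other two (PMAIP1 and BID), at a threshold that 23.3% of all genes tested passed as higher and 22.4% as lower (45.7% in either direction). BMF showed the largest change of the family, a 2.54-fold rise, and PMAIP1 the largest fall, with a log2 fold change of -0.67. Among the genes that protect cells, BCL2L1 rose 1.32-fold and MCL1 did not pass the test, and of the pore-forming genes BAK1 rose 1.26-fold while BAX did not pass. BCL2 itself was close to undetected in both lines.

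The windows around the transcription start are shown for the 3 BH3-only genes that rose together and for PMAIP1, the one that fell most. Each runs from 250 bases before to 50 bases after a start site annotated by RefSeq on GRCh38.p14, 5′ to 3′ on the gene's strand. Capitals mark exact matches, on either strand, to the FOXO core (GTAAACA), the AP-1 motif (TGANTCA), the cyclic AMP response element (TGACGTCA), the E-box (CACGTG) or the GC box (GGGCGG). The positions are chr15:40108830-40109129 on the minus strand for BMF, chr19:47232618-47232917 on the minus strand for BBC3, chr2:111120664-111120963 on the plus strand for BCL2L11 and chr18:59899746-59900045 on the plus strand for PMAIP1.
BMF: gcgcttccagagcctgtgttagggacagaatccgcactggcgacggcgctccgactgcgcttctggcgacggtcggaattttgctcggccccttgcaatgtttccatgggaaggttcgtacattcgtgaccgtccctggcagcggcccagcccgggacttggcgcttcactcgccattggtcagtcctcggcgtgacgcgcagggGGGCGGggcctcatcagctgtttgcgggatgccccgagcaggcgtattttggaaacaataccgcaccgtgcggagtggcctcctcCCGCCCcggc
BBC3: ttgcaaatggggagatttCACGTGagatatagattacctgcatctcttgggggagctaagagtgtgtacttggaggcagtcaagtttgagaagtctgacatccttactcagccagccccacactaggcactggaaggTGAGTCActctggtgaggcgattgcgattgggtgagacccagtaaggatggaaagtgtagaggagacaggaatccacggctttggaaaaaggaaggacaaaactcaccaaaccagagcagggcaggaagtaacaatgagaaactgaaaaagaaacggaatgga
BCL2L11: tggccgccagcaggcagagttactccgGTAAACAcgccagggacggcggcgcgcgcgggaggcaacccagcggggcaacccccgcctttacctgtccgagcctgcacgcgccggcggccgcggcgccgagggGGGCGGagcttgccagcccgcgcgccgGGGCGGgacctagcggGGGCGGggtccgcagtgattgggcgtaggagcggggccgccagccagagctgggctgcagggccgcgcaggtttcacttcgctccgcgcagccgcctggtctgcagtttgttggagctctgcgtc
PMAIP1: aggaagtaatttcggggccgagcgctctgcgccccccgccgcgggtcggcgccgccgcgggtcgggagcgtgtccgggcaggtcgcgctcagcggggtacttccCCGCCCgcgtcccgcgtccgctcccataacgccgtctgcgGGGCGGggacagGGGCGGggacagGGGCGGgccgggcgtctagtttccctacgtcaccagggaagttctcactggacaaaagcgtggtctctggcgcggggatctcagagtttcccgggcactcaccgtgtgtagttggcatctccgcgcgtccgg
Of these windows only that of BCL2L11 held a FOXO core, 223 bases before the start. The FOXO core was present in 3.42% of the 35116 RefSeq windows of this length. BBC3 had 1 E-box, 232 bases before the start, and 1 AP-1 motif, 113 bases before it. These motifs occurred in 7.26% and 7.71% of all windows. The window of PMAIP1 held 4 GC boxes, that of BCL2L11 3 and that of BMF 2, a motif found in 45% of all windows, and no window of a family gene held the full cyclic AMP response element (1.85% of all windows). BAX, whose window is not printed, had 4 E-boxes. RefSeq windows were matched for 9 of the 10 genes, MCL1 being the exception, and a match describes letters and not a bound site. No FOXO core was found in the second window annotated for BMF.

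Read counts are given as CPM, edgeR's library-scaled counts with TMM factors, which compare 1 gene between libraries. Differences between the lines are given as log2FC, the log2 of the fold change of Huh7 LR over Huh7 P, fitted in edgeR (quasi-likelihood test) with p-values adjusted by Benjamini-Hochberg over all 17531 genes and loci tested. A gene was taken to differ at an adjusted p under 0.05, and a call past 2-fold needed an adjusted p under 0.001. At 62738937 to 71427573 counts per library, a count of 0 allows up to 3 counts, or 0.042 to 0.0478 CPM, a limit that covers counting error only. Of the 9 family genes tested, 5 were higher and 2 lower, beside the 23.3% and 22.4% of all genes. Only BMF was called past 2-fold, against 4.43% of all genes called higher and 1.78% called lower by this rule, 6.21% together, and BMF lost this call with limma-trend on log2(FPKM + 0.1) without a filter on low values (adjusted p = 0.00806, log2FC 1.58). In 8 of the 9 genes the lines did not overlap, which held for 55.9% of all genes tested (28.2% with Huh7 LR above and 27.7% with Huh7 LR below). The median log2FC of the 9 was 0.28, beside 0.00 (0.00461) over all genes tested. In GENCODE release 29 no exon of a family gene overlaps one of another listed gene, on either strand, so reads of a second listed gene did not enter these counts by overlap. The counts are summed over all transcripts of a gene and cannot separate isoforms such as the long and short forms made from BCL2L1 and MCL1.

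**Figure D1:**
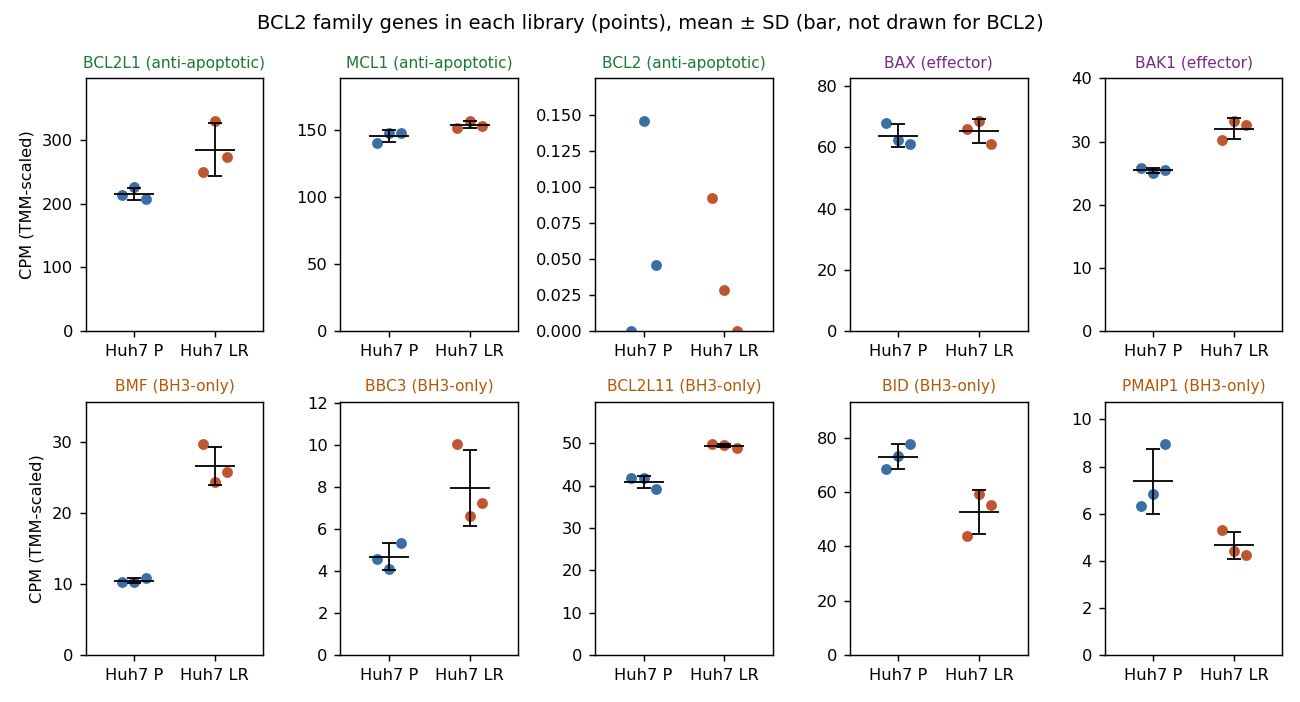
Each panel plots TMM-scaled CPM (y axis, from 0) of one BCL2 family gene in the 3 Huh7 P and 3 Huh7 LR libraries (points), with the mean and SD as bars (not drawn for BCL2). The lines are separated for every gene except BAX and BCL2, the mean of BMF is 10.5 CPM in Huh7 P and 26.6 CPM in Huh7 LR, and BCL2 does not exceed 0.146 CPM.

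BCL2L1 (ENSG00000171552, chromosome 20, 31664452 to 31723989, GRCh38, minus strand) had 214, 226 and 207 CPM in the Huh7 P libraries and 249, 330.5 and 274 CPM in the Huh7 LR libraries. All Huh7 LR libraries lay above all Huh7 P libraries, and Huh7 LR replicate 2 was the highest. The mean rose from 216 ± 9.72 to 285 ± 41.7 CPM (mean ± SD, n = 3 per line), a log2FC of 0.40 (standard error, s.e., 0.10, edgeR adjusted p = 0.00649). The 95% interval of the fold was 1.14 to 1.53. Without Huh7 LR replicate 2 or any other single library, the log2FC lay between 0.29 and 0.49 and stayed past the threshold.

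MCL1 (ENSG00000143384, chromosome 1, 150574551 to 150579738, minus strand), whose protein is short-lived and binds NOXA, had 141, 148 and 148 CPM in Huh7 P cells and 152, 157 and 154 CPM in Huh7 LR. The Huh7 LR libraries were the higher 3, but the lines lay close to each other. Its log2FC of 0.08 did not pass the test (edgeR adjusted p = 0.316), with a 95% interval of -0.06 to 0.22, so that a rise of up to 1.17-fold lies within it. BCL2 (ENSG00000171791, chromosome 18, 63123346 to 63320128, minus strand) had 0, 9 and 3 counts in Huh7 P cells and 6, 2 and 0 in Huh7 LR, and was removed by the filter on low counts. With 12 counts in one line and 8 in the other, it did not pass in an edgeR fit without the filter (adjusted p = 0.798), and a small difference could not be seen at such counts.

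BAX (ENSG00000087088, chromosome 19, 48954815 to 48961798, plus strand) had 67.9, 62.5 and 60.9 CPM in Huh7 P cells and 66.1, 68.7 and 61.2 CPM in Huh7 LR, and the lines overlapped. Its log2FC was 0.03 (edgeR adjusted p = 0.735), with a 95% interval of -0.13 to 0.20. BAK1 (ENSG00000030110, chromosome 6, 33572547 to 33580293, minus strand) had 25.8, 25.1 and 25.5 CPM in Huh7 P cells and 30.2, 33.3 and 32.7 CPM in Huh7 LR. The Huh7 P libraries were nearly equal, and every Huh7 LR library lay above them. BAK1 rose with a log2FC of 0.33 (s.e. 0.08, edgeR adjusted p = 0.004), and the interval of the fold was 1.12 to 1.41.

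BMF (ENSG00000104081, chromosome 15, 40087890 to 40108892, minus strand), a BH3-only protein that can be held at myosin motors through dynein light chain, had 10.3, 10.2 and 10.9 CPM in Huh7 P cells and 29.7, 24.4 and 25.8 CPM in Huh7 LR. The gap between the lines was wider than the range within either. Its mean rose from 10.5 ± 0.346 to 26.6 ± 2.74 CPM (mean ± SD, n = 3 per line), a log2FC of 1.35 (s.e. 0.10, edgeR adjusted p = 2.21e-06). The 95% interval of the fold, 2.19 to 2.95, lay above 2-fold.

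BBC3 (ENSG00000105327, chromosome 19, 47220822 to 47232766, minus strand), a target of FOXO factors, had 4.58, 4.10 and 5.35 CPM in Huh7 P cells and 10.0, 6.62 and 7.24 CPM in Huh7 LR. The lines did not overlap, and Huh7 LR replicate 1 stood above the other two. The log2FC was 0.77 (s.e. 0.17, edgeR adjusted p = 0.00399) and 0.57 to 0.89 with each library left out in turn. BCL2L11 (ENSG00000153094, chromosome 2, 111119378 to 111168447, plus strand), whose product BIM binds all the main anti-apoptotic proteins, had 41.8, 41.7 and 39.2 CPM in Huh7 P cells and 49.8, 49.7 and 49.0 CPM in Huh7 LR. Its rise was small and even across the libraries, with a log2FC of 0.28 (s.e. 0.07, edgeR adjusted p = 0.00616).

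BID (ENSG00000015475, chromosome 22, 17734138 to 17774770, minus strand), which caspase-8 cleaves to its active form, had 68.5, 73.2 and 77.7 CPM in Huh7 P cells and 43.7, 59.5 and 55.3 CPM in Huh7 LR. Every Huh7 LR library lay below every Huh7 P library, replicate 1 by the widest margin. BID fell with a log2FC of -0.47 (s.e. 0.11, edgeR adjusted p = 0.00395). PMAIP1 (ENSG00000141682, chromosome 18, 59899948 to 59904306, plus strand), whose product NOXA binds chiefly MCL1, had 6.34, 6.85 and 8.94 CPM in Huh7 P cells and 5.32, 4.40 and 4.23 CPM in Huh7 LR. The lines did not overlap, and Huh7 P replicate 3 was the highest of all. PMAIP1 fell with a log2FC of -0.67 (s.e. 0.16, edgeR adjusted p = 0.00562), which was -0.77 to -0.51 with each library left out in turn.

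**Figure D2:**
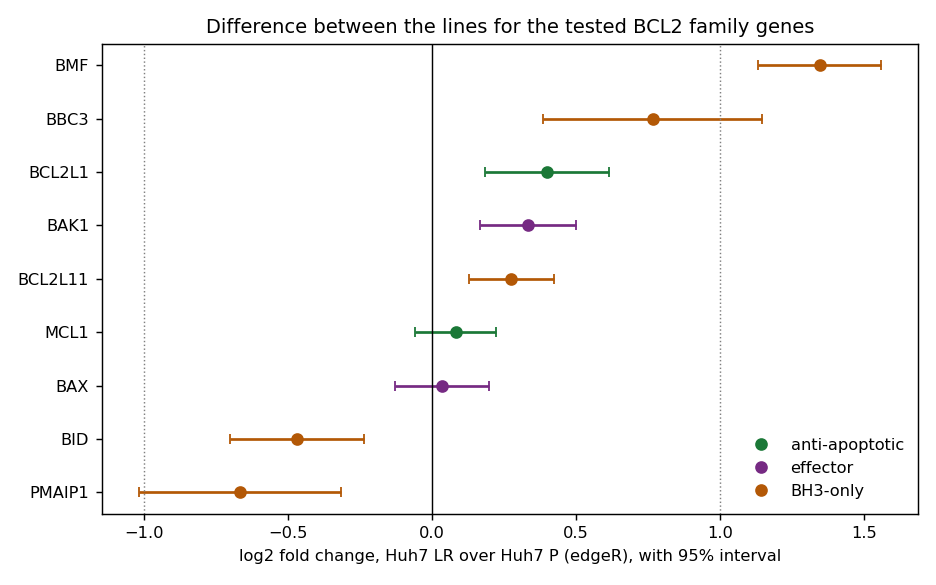
Points show the log2FC of Huh7 LR over Huh7 P (x axis) from edgeR for the 9 tested genes, coloured by role, with 95% intervals, and dotted lines mark 2-fold. The intervals of MCL1 and BAX include 0, that of BMF lies entirely above 2-fold, and BID and PMAIP1 lie below 0.

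Levels of different genes were compared on the authors' FPKM values, which are scaled for transcript length. In Huh7 P cells the order was BCL2L1 (84.7 FPKM), BAX (54.9), MCL1 (34.3), BID (32.5), BAK1 (10.9), BCL2L11 (7.63), PMAIP1 (3.50), BMF (2.98), BBC3 (2.33) and BCL2 (0.00735). The libraries of MCL1 and BID overlapped in Huh7 P, as did those of PMAIP1 and BMF and those of BMF and BBC3. These neighbours therefore did not differ beyond their spread. The overlap of PMAIP1 and BMF rested on replicate 3, in which BMF had 4.22 FPKM, against 2.34 and 2.37 in replicates 1 and 2. BCL2L1 made up 36.2% of the FPKM summed over the 10 genes in Huh7 P cells and 41.9% in Huh7 LR.

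The first 6 places were held by the same genes in Huh7 LR, in the same order. BID, at 23.1 FPKM, no longer overlapped MCL1 at 37.4 FPKM. BMF, at 9.02 FPKM, now overlapped BCL2L11 at 9.81 FPKM, and PMAIP1, at 2.25 FPKM, had moved below BBC3 at 4.06 FPKM without overlap. BCL2 had at most 0.0176 FPKM in any library.

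**Figure D3:**
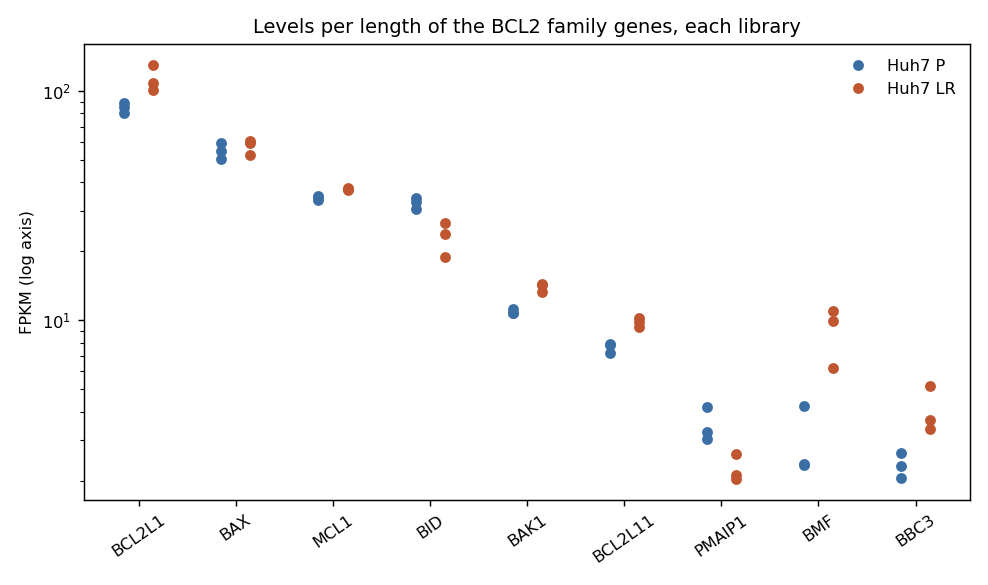
FPKM on a log axis is plotted for each library of Huh7 P and Huh7 LR, with genes in the order of their mean level in Huh7 P and BCL2 left out because libraries with 0 cannot be drawn. BCL2L1 is highest in both lines at 80.5 to 130 FPKM, and PMAIP1, which overlaps BMF in Huh7 P, lies below both BMF and BBC3 in Huh7 LR.

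For BMF the FPKM values spread more than the counts. They were 2.34, 2.37 and 4.22 FPKM in Huh7 P cells and 11.0, 9.89 and 6.19 FPKM in Huh7 LR, and the lines did not overlap. The number of counts that gave 1 FPKM, scaled to the library and to the gene's own mean, was 1.28, 1.24 and 0.735 in Huh7 P cells and 0.80, 0.719 and 1.22 in Huh7 LR. For BMF this ratio was not the same in replicates of 1 line. Its highest value was 1.79 times its lowest, a wider spread than in 99.4% of the 11282 genes with at least 100 counts and 1 FPKM in every library, whose median was 1.03. For the other 8 tested genes this spread was between 1.00 and 1.11. The cause was not tested. The place of BMF in the order of levels and the sums of BH3-only genes use these FPKM values.

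Ratios between family genes within each library are given as a description with no test. The summed FPKM of BCL2, BCL2L1 and MCL1 was 1.68, 1.89 and 1.87 times that of BAX and BAK1 in Huh7 P cells, and 1.92, 2.23 and 2.18 times in Huh7 LR. Against the summed BH3-only genes the same ratio was 2.58, 2.54 and 2.20 in Huh7 P cells and 2.94, 3.21 and 3.25 in Huh7 LR. Both ratios were higher in all Huh7 LR libraries, and for the effectors the gap between the highest Huh7 P and the lowest Huh7 LR library was small.

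The sum of the 5 BH3-only genes itself overlapped between the lines, with a mean of 48.9 ± 3.15 FPKM (SD, n = 3) in Huh7 P cells and 48.2 ± 3.68 FPKM (SD, n = 3) in Huh7 LR. Within this sum BID made up 66.4%, 67.9% and 65.1% of it in Huh7 P cells and 39.7%, 50.9% and 52.8% in Huh7 LR, whereas BMF made up 5.08%, 4.89% and 8.08% in Huh7 P cells and 23.2%, 19.0% and 13.8% in Huh7 LR. The ratio of BMF to PMAIP1 was 0.771, 0.730 and 1.00 in Huh7 P cells and 4.20, 4.68 and 3.05 in Huh7 LR. All Huh7 LR libraries lay above the Huh7 P libraries in this ratio. The BMF shares and this ratio rest on the FPKM of BMF, whose counts per FPKM spread 1.79-fold between libraries, and the replicates numbered 3, which gave the highest BMF share in Huh7 P and the lowest in Huh7 LR, had 10.9 and 25.8 CPM of BMF, close to another library of their line. The ratio of BCL2L1 to MCL1 was 2.47 ± 0.117 in Huh7 P cells and 3.04 ± 0.419 in Huh7 LR (mean ± SD, n = 3 per line), higher in every Huh7 LR library, and that of BAX to BAK1 was 5.03 ± 0.323 and 4.13 ± 0.395, lower in every Huh7 LR library.

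**Figure D4:**
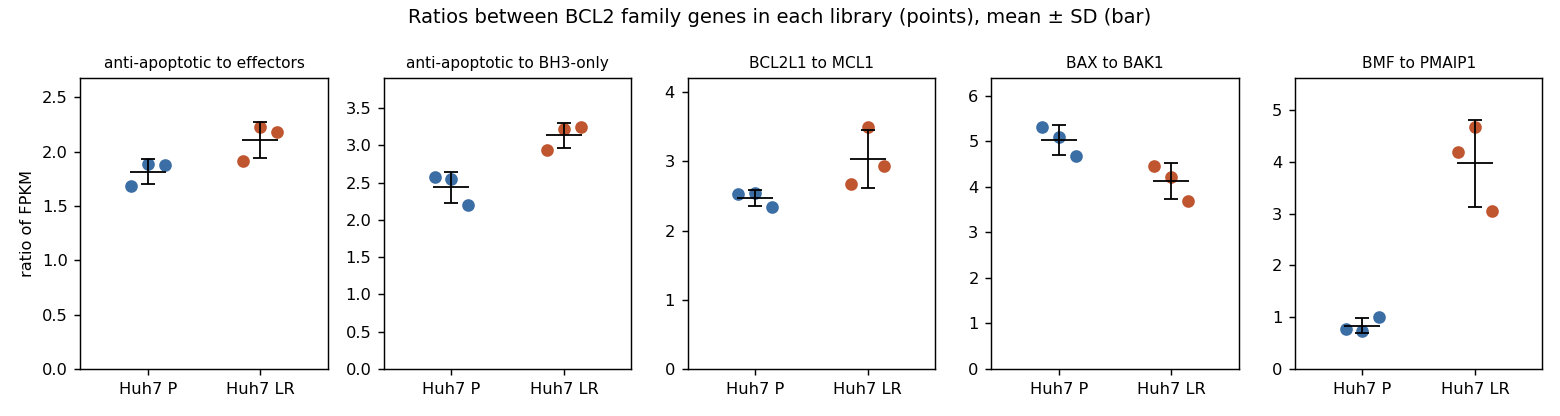
Each panel plots a ratio of FPKM values (y axis, from 0) in the 3 libraries of each line (points), with mean and SD as bars. The lines are separated in all 5 panels, most widely for BMF to PMAIP1, which is 0.73 to 1.00 in Huh7 P cells and 3.05 to 4.68 in Huh7 LR.

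The genes around the family members on their chromosomes, those starting within 2000000 bases, were compared with the members. The 50 tested neighbours of BMF had a median log2FC of 0.00 (0.00243), the 89 of BBC3 one of 0.07 and the 22 of BCL2L1 one of 0.03, so that these genes rose among neighbours whose median was near 0. PMAIP1 and BID fell where the median of the neighbours was above 0, at 0.43 for the 8 neighbours of PMAIP1 and 0.19 for the 27 of BID. Over all 14053 annotated genes tested the median was -0.01 (-0.00992).

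The other genes of the pathway were taken from lists written from general knowledge. Of 13 other BCL2 family genes 10 were tested, of which 1 was higher, 1 was lower and 8 did not pass, so that 20% passed, beside 45.7% of all genes. BOK, a BAX-like protein, fell from 3.74 ± 0.543 to 1.79 ± 0.0951 CPM (mean ± SD, n = 3 per line), with a log2FC of -1.06 (s.e. 0.17, edgeR adjusted p = 4.16e-04). BNIP3L, a mitophagy receptor, had a log2FC of 0.40 (edgeR adjusted p = 0.0308), although its libraries overlapped. BCL2L2, BAD and BNIP3 had log2FC values of 0.09, 0.05 and 0.19 and did not pass. Reads are uncertain for BCL2L2, which shares 19.4% of its exon bases with BCL2L2-PABPN1 on the same strand, and, where strand was not used, for BAD (23.7% with GPR137 on the opposite strand) and BNIP3L (7.66% with PNMA2).

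Among 10 genes of the mitochondrial channels, prohibitins and fission and fusion machinery, 8 were lower, 0 were higher and 2 did not pass, with a median log2FC of -0.31, beside 22.4% lower among all genes. OPA1, the fusion protein that keeps cristae closed, fell from 150.3 ± 2.49 to 87.9 ± 8.51 CPM (mean ± SD, n = 3 per line), a log2FC of -0.77 (s.e. 0.08, edgeR adjusted p = 2.38e-05). DNM1L, the fission GTPase, had a log2FC of -0.64 and VDAC2, an outer membrane channel that binds BAK1, one of -0.24. MTCH2, a docking site of BID, had one of -0.06 and did not pass.

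Of 12 genes acting downstream of the pores, 1 was higher, 2 were lower and 9 did not pass, so that 25% passed, again below the 45.7% of all genes. APAF1, the scaffold of the apoptosome, fell from 68.3 ± 2.09 to 48.7 ± 6.41 CPM (mean ± SD, n = 3 per line), with a log2FC of -0.49 (s.e. 0.09, edgeR adjusted p = 0.00141). APAF1 shares 9.48% of its exon bases with ANKS1B on the opposite strand. AIFM1 had a log2FC of -0.55 and CASP6, which shares 105 exon bases with MCUB on the opposite strand, one of 0.24, and both passed. CASP9, the caspase that the apoptosome activates, had a log2FC of 0.22 and did not pass. Of 6 inhibitor of apoptosis genes tested, 2 were lower, BIRC5 (survivin) with -0.53 and XIAP, which blocks caspases, with -0.37, and 4 did not pass, a share of 33.3% passed.

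In the death receptor arm 3 of 13 tested genes were higher, 0 lower and 10 did not pass. The 23.1% higher lay near the 23.3% of all genes, and as the share passed in either direction it lay below the 45.7% of all genes. TNFSF10, the death ligand TRAIL, had 6.65, 6.63 and 6.93 CPM in Huh7 P cells and 19.8, 21.1 and 22.1 CPM in Huh7 LR. It rose with a log2FC of 1.64 (s.e. 0.09, edgeR adjusted p = 5.21e-07), past 2-fold. TNFRSF10D, a TRAIL receptor without a working death domain, had a log2FC of 0.51 (edgeR adjusted p = 4.32e-04), and the adaptor TRADD, which shares 4.91% of its exon bases with FBXL8 on the opposite strand, one of 0.41. TNFRSF10B, a TRAIL receptor that signals death, had 0.19 and did not pass (edgeR adjusted p = 0.0507), and CASP8, which cleaves BID, had 0.11.

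Among 18 genes known to regulate the family members, 6 were higher, 4 lower and 8 did not pass, so that 55.6% passed, beside 45.7% of all genes. FOXO factors activate BCL2L11, BBC3 and BMF, and their genes were higher, with log2FC values of 1.39 for FOXO4 (edgeR adjusted p = 5.52e-06), 0.98 for FOXO1 and 0.38 for FOXO3. The stress factors DDIT3 (CHOP) and ATF3 rose past 2-fold, with 1.07 and 1.02, although DDIT3 shares 8.03% of its exon bases with AC022506.1 on the same strand and 27.2% with MARS on the opposite one, so its reads are uncertain where strand was not used. ATF4, which acts upstream of them and activates PMAIP1, had -0.23 and was lower, as was TRIB3, a pseudokinase induced by this pathway, with -0.44. MYC fell from 86.0 ± 6.12 to 30.0 ± 4.10 CPM (mean ± SD, n = 3 per line), a log2FC of -1.52 (s.e. 0.10, edgeR adjusted p = 1.35e-06). MDM2, a ubiquitin ligase, had -0.24 and was lower. The ubiquitin regulators of MCL1, HUWE1, FBXW7 and USP9X, had log2FC values of -0.03, 0.02 and -0.09 and did not pass.

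**Figure D5:**
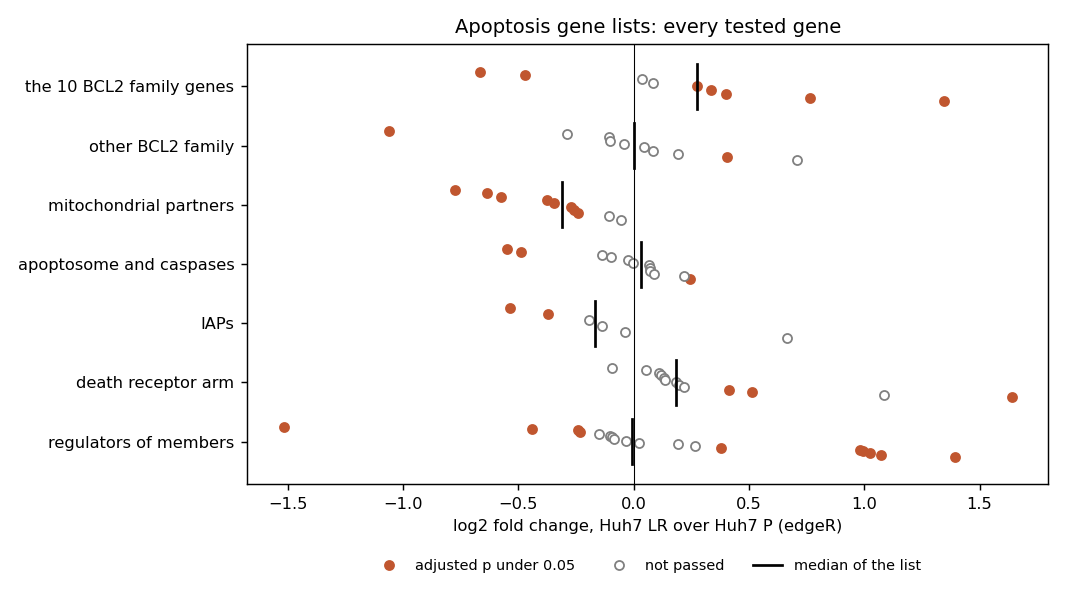
Every tested gene of each list is a point at its log2FC of Huh7 LR over Huh7 P (x axis), filled where the adjusted p from edgeR is under 0.05, with a vertical bar at the median of the list. In the list of mitochondrial partners 8 of 10 genes are lower, whereas most genes of the apoptosome list lie near 0.

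The line label was checked against marker genes. All 7 hepatocyte-derived markers were tested. Their summed level was 35306 to 44614 CPM in Huh7 P cells and 46076 to 47839 CPM in Huh7 LR. Of these markers 4 were higher in Huh7 LR, beside 23.3% of all genes. GPC3 was past 2-fold, with means of 674 and 1547 CPM, and ALB rose from a mean of 12948 to 21559 CPM. AFP, KRT8 and KRT18 had log2FC values of -0.23, -0.17 and -0.16 and did not pass. The 5 leukocyte markers summed to at most 0.214 CPM, with TYROBP and HLA-DRA among those at 0 in all libraries. Of the 4 endothelial markers CDH5 and KDR were at 0. The summed level of 38.8 to 47.5 CPM in Huh7 P cells and 65.0 to 71.2 CPM in Huh7 LR was nearly all PECAM1. Both tested markers, PECAM1 and VWF, were higher in Huh7 LR. VWF was low, with counts of 0, 0 and 8 in Huh7 P cells and 19, 26 and 21 in Huh7 LR, at most 0.371 CPM. The 5 fibroblast markers summed to 1.98 to 2.20 CPM in Huh7 P cells and 4.99 to 8.02 CPM in Huh7 LR, with DCN at 0. Both tested fibroblast markers were higher in Huh7 LR, COL1A1 with a log2FC of 1.84 (edgeR adjusted p = 9.12e-05, past 2-fold) and PDGFRB with 0.84 (edgeR adjusted p = 0.00953). The part of these markers in the family's differences was not tested. In bulk RNA, fewer cells expressing a gene and less RNA per cell cannot be told apart.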

How the data were processed

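RNA-seq was analysed for 3 Huh7 P and 3 Huh7 LR samples of poly(A) RNA. For each gene and library the authors deposited a read count, without normalization, and an FPKM value scaled for transcript length and library size. The submitters' processing notes name TopHat2, Cufflinks and DESeq without versions, and the build mm10, although all 19974 annotated identifiers are human and are present in GENCODE release 29 (GRCh38), whose coordinates are used here. The counting program and the use of strand are not given in the sources used here, and the extraction text of the labels describes another organism. The methods call the samples independent. What separates them is not described further, so p-values measure the spread between these samples.

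Testing used edgeR 4.0.16 under R 4.3.3 (filterByExpr with minimum count 10 and minimum total 15, TMM factors of 0.977 to 1.03, quasi-likelihood test without robust estimation). Each standard error is the log2FC divided by the root of its F value. The 34 lines of annotation text without values were left out, and 6210 unannotated loci were kept in the tests. In data simulated on 17240 genes, edgeR recovered 192 of 200 changed genes past 2-fold, with 1 unchanged gene called. At the threshold of 0.05 used for the family genes it recovered 200 of 200, with 13 unchanged genes called. Recovery of small differences was not tested separately. The alternatives were DESeq2 1.42.0 and its size factors, other filters, a replicate block, limma-trend (limma 3.58.1) on log2(FPKM + 0.1) and log2(FPKM + 1), other thresholds and each library left out. Genes named are all 10 family members, and from each pathway list those past 2-fold and up to 2 with the largest rise and fall at an adjusted p under 0.05. Other list genes and the marker genes were named after their values were seen, as were the ratios of BAX to BAK1 and BMF to PMAIP1, the shares of BID and BMF, the counts per FPKM and the promoter motifs. The members and lists were chosen with earlier results of these data known. Figures were drawn with matplotlib 3.10.9. Some genes of the lists are counted in them and are not reported here by name.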

Additional observations from a re-analysis of the deposited data

How the results depend on the processing

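Over 14 other settings, 125 of 126 log2 fold changes of single family genes had the sign of the reported value and the same call at 0.05. The exception was BAX, which did not pass in any setting and ranged from -8.61e-05 (without Huh7 P replicate 3) to 0.0799 (without Huh7 P replicate 1) with each library left out. At that threshold 5 family genes were higher and 2 lower in each of these 14 settings, with each library left out included, against 1 and 0 at a threshold of 0.001 without a fold limit, which 17.7% of all genes passed. BMF was called past 2-fold in 13 settings and not with limma-trend on log2(FPKM + 0.1) without a filter on low values, where 0 family genes were called, 353 of all genes were called higher and 120 lower, and 10 pathway genes were lower. The adjusted p of BMF from limma-trend was 0.00806 there and its log2 fold change 1.58, with 1.26 to 1.58 over all settings. On log2(FPKM + 1), limma-trend gave 268 higher and 84 lower calls. With each library left out in turn, 551 to 734 genes were called higher and 224 to 341 lower, against 776 and 312, and 8 to 13 pathway genes were higher and 11 to 17 lower, against 11 and 17. The lowest of these, 11, came without Huh7 P replicate 2. The cause of these changes was not tested, apart from the fewer samples when a library is left out.

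The labels do not say whether a replicate number marks a shared batch. Deviations of same-numbered samples correlated by 0.029 to 0.032. Those of samples with different numbers correlated by -0.028 to -0.002, so each sample correlated best with its own number. With the replicate block 783 genes were called higher and 316 lower, and the family counts remained 5 higher and 2 lower. Summing a family gene with overlapping genes gave no value, since none shares exon sequence with a listed gene. The low counts of BCL2, 12 and 8, limit what its comparison can show to large differences.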
